A study of Mus musculus with 6 samples.

Results

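The 9 genes described here encode the 3 TGF-beta ligands (*Tgfb1*, *Tgfb2*, and *Tgfb3*), their 3 receptors (*Tgfbr1*, *Tgfbr2*, and *Tgfbr3*), and 3 SMAD proteins that act below them (*Smad2*, *Smad3*, and *Smad7*). They were chosen by gene symbol, and each symbol matched 1 of the 55491 genes in the deposited table. None of the 9 had fewer than 10 counts in a library, so no filter on low values removed any of them. Bulk RNA-seq of inguinal white adipose tissue (IWAT), a subcutaneous fat depot, was examined in 4-week-old male C57BL/6J mice on regular chow. The comparison was between 3 *Ebf2*+/+ mice and 3 mice with 1 copy of the *Ebf2* p.E165X knock-in allele (*Ebf2E165X/+*), with 1 library per mouse and both groups at the same age. *Ebf2* encodes a transcription factor of adipocyte precursors and brown and beige fat. The allele, a nonsense change made by CRISPR/Cas9 editing, was present in every cell type of the depot, and the study asked how it affects fat tissue and its scarring.

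TGF-beta is secreted as a latent complex that binding proteins store in the extracellular matrix and integrins release. The active dimer joins the type II receptor, TGFBR2, to the type I receptor, TGFBR1, whose kinase phosphorylates SMAD2 and SMAD3, and these enter the nucleus with SMAD4. SMAD7 blocks the type I receptor and is itself induced by the signal. In adipose tissue, this pathway is known for holding precursors back from becoming adipocytes and for driving collagen deposition. Transcript levels do not measure phosphorylated SMAD proteins or active ligand, so the values below are of mRNA only.

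RefSeq promoter windows (250 bases before to 50 bases after a start site, GRCm38.p6) were matched for 5 of the 9 genes, *Tgfb1*, *Tgfb2*, *Tgfbr1*, *Tgfbr2*, and *Smad3*, with 6 windows in all because *Tgfbr1* has 2 start sites. They are shown because the altered gene is a DNA-binding factor, and capitals mark letters of 2 motifs searched on both strands. The EBF core was written CCCNNGGG, a palindrome, and the SMAD-binding CAGA box was written CAGACA. CCCNNGGG was found in 1 *Tgfb1* window, as 2 overlapping matches printed as 1 run of capitals, and in both *Tgfbr1* windows. The study writes its EBF motif more narrowly, as CCCWNGGG, where W is A or T. The match at the first *Tgfbr1* start site, CCCGCGGG, lacks that letter on both strands.
Tgfb1, chr7:25686910-25686938, plus strand: ccatgccctcCCCCTGGGGctgcccccgc
Tgfbr1, first start site, chr4:47353074-47353101, plus strand: agcccagggcCCCGCGGGcggggctctc
Tgfbr1, second start site, chr4:47386074-47386101, plus strand: atcccaggatCCCAGGGGtttggtcata
CAGACA was found in the *Tgfb2* window and in the window of the second *Tgfbr1* start site.
Tgfb2, chr1:186706178-186706203, minus strand: ttggtgatcaCAGACAgtgactactg
Tgfbr1, second start site, chr4:47386003-47386028, plus strand: tcgaactcagCAGACAgccccacggt
Of all 32851 promoter windows of this length, 13.7% held CCCNNGGG and 21.04% held CAGACA. These shares were not matched for base content. G and C made up 77.0% of the *Tgfb1* window and 74.67% and 52.0% of the first and second *Tgfbr1* windows. The palindrome GTCTAGAC, held by 0.213% of all windows, was not in these 6 windows, and the *Tgfbr2* and *Smad3* windows held none of the 3 motifs. These matches describe letters only, and binding was not measured here.

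The third library of each genotype stood apart from the others, each in a different measure. The third *Ebf2E165X/+* library had 3.70% of its counts in 8 skeletal muscle markers, against 0.0715% to 0.673% in the other 5 libraries. The third *Ebf2*+/+ library had 1.67% of its counts in a gene related to 18S ribosomal RNA, against 0.157% to 0.387% in the others. Total counts ran from 106820505 to 135039488 per library. The results that moved most with the third *Ebf2E165X/+* mouse are given with and without it below.

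*Ebf2* itself had lower values in all 3 *Ebf2E165X/+* libraries. Levels are given as CPM, counts scaled to a common library size with TMM factors. *Ebf2* was at 38.3, 41.3, and 37.2 CPM in *Ebf2*+/+ and at 22.8, 22.9, and 21.1 CPM in *Ebf2E165X/+*, with no overlap. The log2 fold change was −0.81 (SE 0.08, n = 3 per genotype), with an edgeR adjusted *P* of 0.0596 and a DESeq2 adjusted *P* of 1.23e-13, so that it was called by DESeq2 and not by edgeR. The nonsense base itself cannot be read from gene counts, so these values do not check the genotype labels.

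None of the 9 TGF-beta genes passed the test between genotypes. A gene was called at a Benjamini-Hochberg adjusted *P* under 0.05 and a linear fold change above 1.5. With edgeR, 0 of 9 were called, against 0.00918% of all 32664 genes tested, and with DESeq2, 0 of 9 were called, against 0.610% of the genes with an adjusted *P*. At an unadjusted *P* under 0.05, edgeR gave 0 of 9, against 4.77% of all genes tested and 6.06% of the 18905 genes that reached 10 counts in each library. DESeq2 gave 1 of 9, *Tgfb3* (DESeq2 adjusted *P* = 0.467), against 7.45% of the genes at that count. In 1 of 9 genes, *Tgfbr1*, all *Ebf2E165X/+* values lay above all *Ebf2*+/+ values, against 6.66% of genes with that order, and in 0 of 9 they lay below, against 6.78%. The fitted log2 fold change was above 0 for 6 of the 9 genes and for 56.1% of those 18905 genes, whose median was 0.03.

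The ligands split into 1 abundant and steady gene and 2 scarcer genes that were highest in the same mouse. *Tgfb1*, the ligand best known from immune and matrix cells, was at 64.8, 64.1, and 69.8 CPM in *Ebf2*+/+ and at 69.0, 68.9, and 65.02 CPM in *Ebf2E165X/+*. The groups lay over each other, with a log2 fold change of 0.03 (95% interval −0.13 to 0.19, edgeR adjusted *P* = 0.919). That interval leaves room for a change of about 0.2 on the log2 scale or less in either direction.

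*Tgfb2*, a ligand that needs the co-receptor TGFBR3 for strong binding, was at 7.67, 6.15, and 6.91 CPM in *Ebf2*+/+ and at 5.90, 7.42, and 14.5 CPM in *Ebf2E165X/+*. The first 2 *Ebf2E165X/+* mice were within or just below the *Ebf2*+/+ range, and only the third was above it, at 2.18 times the mean of the other 2 mice of its genotype. Its log2 fold change was 0.42 with a 95% interval from −0.31 to 1.16 (edgeR adjusted *P* = 0.783). Without the third *Ebf2E165X/+* mouse it was −0.05 (SE 0.18).

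*Tgfb3*, a ligand of mesenchymal cells, had the largest fitted log2 fold change of the 9 genes. It was at 16.6, 15.8, and 20.6 CPM in *Ebf2*+/+ and at 17.9, 23.7, and 34.9 CPM in *Ebf2E165X/+*. The first *Ebf2E165X/+* mouse was inside the *Ebf2*+/+ range and the other 2 were above it. The fitted value was 0.53 (SE 0.23, 95% interval −0.02 to 1.07, edgeR adjusted *P* = 0.783). It was 0.23 (SE 0.16) without the third *Ebf2E165X/+* mouse and 0.73 without the first, with edgeR adjusted *P* of 0.861 and 0.811.

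**Figure D1:**
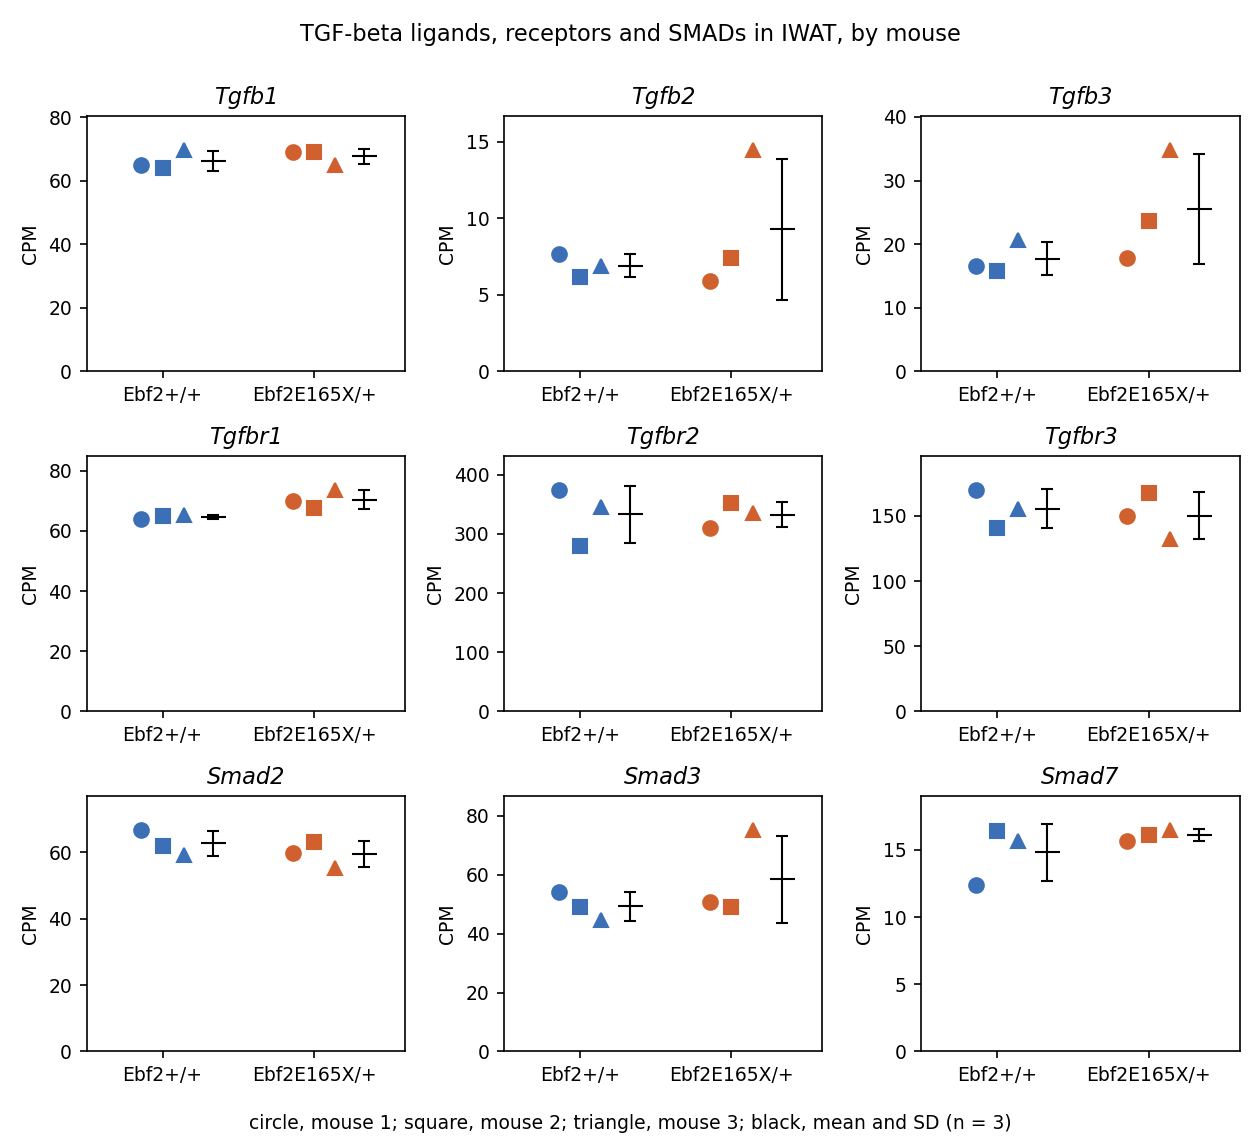
Level of each of the 9 genes in CPM (y axes from 0) in 3 *Ebf2*+/+ mice (blue) and 3 *Ebf2E165X/+* mice (orange), with the mean and SD of each group in black. The orange triangle, the third *Ebf2E165X/+* mouse, stands far above all other mice for *Tgfb2* (14.5), *Tgfb3* (34.9), and *Smad3* (75.4), and only *Tgfbr1* has groups that do not overlap.

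Among the receptors, only *Tgfbr1* had groups that did not overlap, and the difference was small. *Tgfbr1*, the type I receptor kinase, was at 63.8, 64.99, and 65.3 CPM in *Ebf2*+/+ and at 69.8, 67.7, and 73.7 CPM in *Ebf2E165X/+*. The *Ebf2*+/+ values had a coefficient of variation of 1.198%, and the lowest *Ebf2E165X/+* value was above the highest of them. The log2 fold change was 0.12 (SE 0.06, 95% interval −0.03 to 0.27, edgeR adjusted *P* = 0.783), and it was 0.09 without the third *Ebf2E165X/+* mouse.

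*Tgfbr2*, the type II receptor that binds the ligand first, was the most abundant of the 9 genes. It was at 375, 280, and 345 CPM in *Ebf2*+/+ and at 311, 352, and 336 CPM in *Ebf2E165X/+*. The *Ebf2E165X/+* values all lay between the lowest and the highest *Ebf2*+/+ value. The log2 fold change was 0.00 with a 95% interval from −0.31 to 0.30 (edgeR adjusted *P* = 0.995), and its sign changed between fits.

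*Tgfbr3*, or betaglycan, the co-receptor that presents TGF-beta2, was at 170, 141, and 156 CPM in *Ebf2*+/+ and at 150, 168, and 132 CPM in *Ebf2E165X/+*. The lowest value of all was in the third *Ebf2E165X/+* mouse, and the other 2 of its genotype were inside the *Ebf2*+/+ range. Its log2 fold change was −0.05 (95% interval −0.32 to 0.22, edgeR adjusted *P* = 0.922) and 0.03 without that mouse.

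The receptor-activated SMADs differed from each other in which mouse was high. *Smad2* was at 66.9, 62.0, and 59.3 CPM in *Ebf2*+/+ and at 59.8, 63.0, and 55.3 CPM in *Ebf2E165X/+*, with a log2 fold change of −0.08 (95% interval −0.26 to 0.11, edgeR adjusted *P* = 0.783). Its groups overlapped, with the lowest value in the third *Ebf2E165X/+* mouse, and without that mouse the *Smad2* value was −0.03. *Smad3* was at 54.2, 48.9, and 44.7 CPM in *Ebf2*+/+ and at 50.8, 49.2, and 75.4 CPM in *Ebf2E165X/+*. Here the third *Ebf2E165X/+* mouse was the highest of all, at 1.51 times the mean of the other 2, which lay inside the *Ebf2*+/+ range. The *Smad3* log2 fold change was 0.25 (SE 0.17, 95% interval −0.15 to 0.64, edgeR adjusted *P* = 0.783) and 0.02 (SE 0.09) without that mouse. The *Smad3* value was 0.16 without the third *Ebf2*+/+ mouse and 0.36 without the second *Ebf2E165X/+* mouse.

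*Smad7*, the inhibitory SMAD that is also a target of the signal, was at 12.4, 16.4, and 15.7 CPM in *Ebf2*+/+ and at 15.7, 16.1, and 16.5 CPM in *Ebf2E165X/+*. The first *Ebf2*+/+ mouse was low and the other 5 lay close together. The log2 fold change was 0.12 (SE 0.12, 95% interval −0.16 to 0.40, edgeR adjusted *P* = 0.783), and −0.01 without that low mouse.

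**Figure D2:**
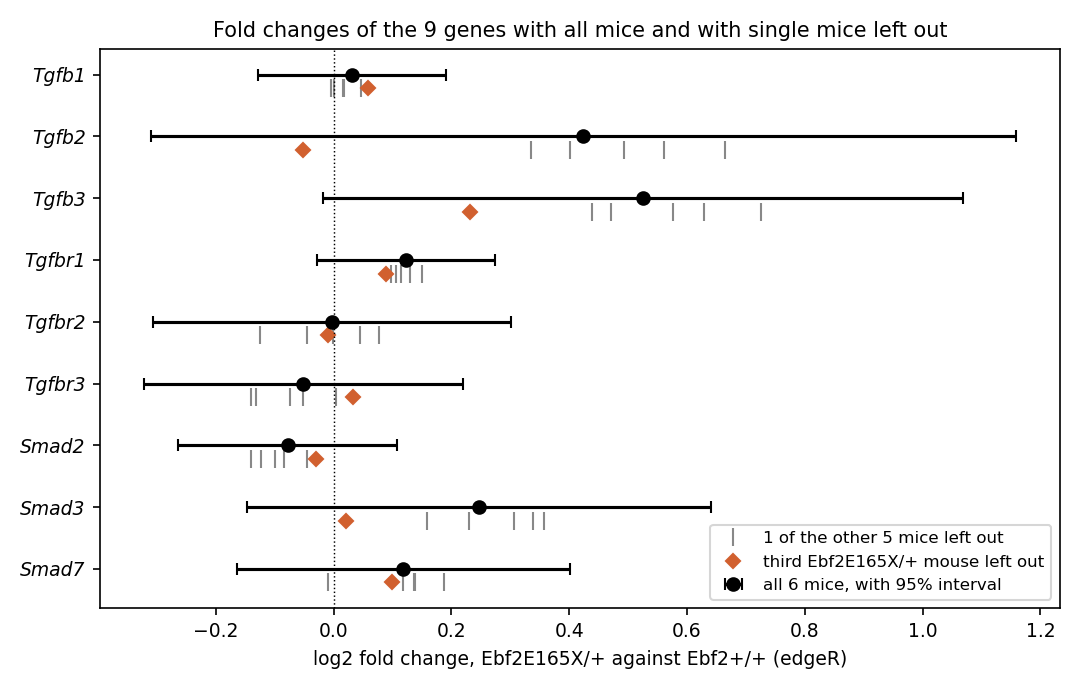
Log2 fold change of each gene, *Ebf2E165X/+* against *Ebf2*+/+ (x axis, edgeR), with all 6 mice and its 95% interval (black), without the third *Ebf2E165X/+* mouse (orange diamonds), and without each other mouse (gray ticks). All 9 intervals include 0, and leaving out the third *Ebf2E165X/+* mouse moves *Tgfb2* from 0.42 to −0.05, *Tgfb3* from 0.53 to 0.23, and *Smad3* from 0.25 to 0.02.

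*Tgfb2*, *Tgfb3*, and *Smad3* thus shared 1 mouse at 1.51 to 2.18 times the mean of the other 2 of its genotype. For the other 6 genes, the third *Ebf2E165X/+* mouse was at 0.829 to 1.07 times that mean, and it was also the highest mouse, by less, for *Tgfbr1* and *Smad7*. The summed level of the 8 skeletal muscle markers was 1681, 6824, and 2589 CPM in *Ebf2*+/+ and 2850, 672, and 39054 CPM in *Ebf2E165X/+*, with the fast myosin gene *Myh4* the most abundant (mean 2689 CPM) and no marker at 0. The *Ebf2*+/+ mouse with the most muscle marker counts, the second, had the lowest *Tgfb2* (6.15 CPM) and *Tgfb3* (15.8 CPM) of its group and a *Smad3* level of 48.9 CPM, in the middle of it. The second *Ebf2E165X/+* mouse, with the fewest muscle marker counts, had 23.7 CPM of *Tgfb3*, the second highest of all 6. The part of muscle RNA in these 3 genes was not tested. In bulk tissue, more or fewer cells of a type cannot be told apart from more or less RNA per cell.

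Some other genes were high in the same mouse. Smooth muscle actin, *Acta2*, was at 113, 125, and 126 CPM in *Ebf2*+/+ and at 115, 152, and 265 CPM in *Ebf2E165X/+*, a log2 fold change of 0.55 that was 0.14 without the third *Ebf2E165X/+* mouse. The summed level of 8 mural cell markers was 1910 CPM in that mouse and 1083 to 1271 CPM in the other 5. The mural markers did not move together, and those named here other than *Rgs5* were chosen after their values were seen. Desmin (*Des*), which skeletal muscle also expresses, was at 969 CPM there and at 58.8 to 174 CPM elsewhere, while *Rgs5*, the most abundant (mean 405 CPM), was at 393 CPM there and *Myh11*, of smooth muscle, at 109.1 CPM. *Rgs5* and *Myh11* lay inside the range of the other 5 mice, and no mural marker was at 0 in all libraries. That mouse was the lowest of all 6 for *Notch3* (99.5 CPM), *Cspg4* (65.1 CPM), *Pdgfrb* (105.9 CPM), and *Mcam* (162.4 CPM), so that *Des* alone carried its high sum. Adipocyte markers averaged 0.68 lower on the log2 scale in that mouse than the *Ebf2*+/+ mean, and endothelial markers 0.39 lower.

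**Figure D3:**
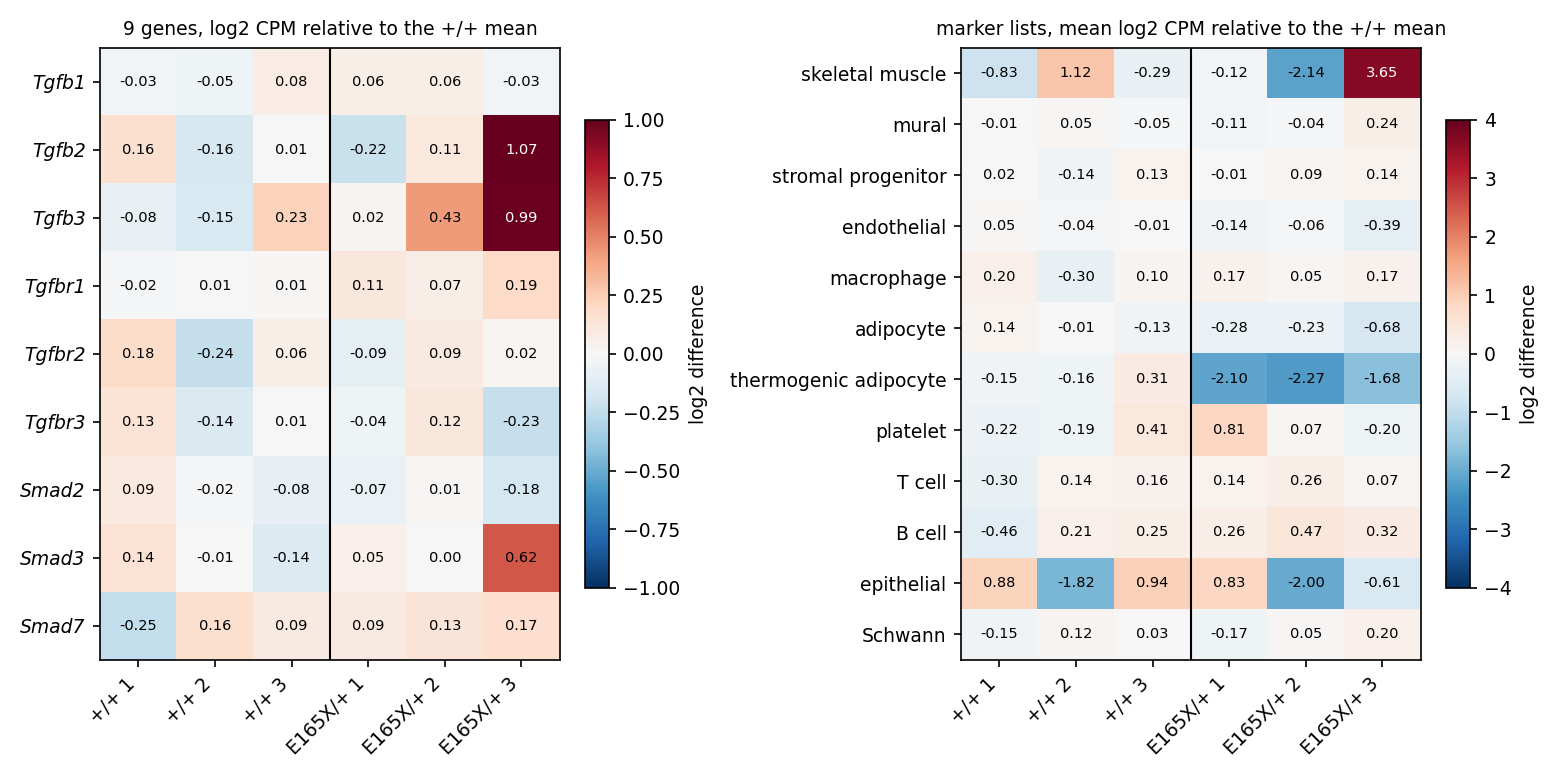
Log2 CPM of the 9 genes (left) and mean log2 CPM of 12 marker lists (right) in each mouse, relative to the *Ebf2*+/+ mean, with the value in each cell and separate color scales. The third *Ebf2E165X/+* mouse has 1.07 for *Tgfb2*, 0.99 for *Tgfb3*, 0.62 for *Smad3*, and 3.65 for skeletal muscle markers, while thermogenic adipocyte markers are from 1.68 to 2.27 lower in all 3 *Ebf2E165X/+* mice.

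Levels between genes were compared per kilobase of merged exon (GENCODE M21, GRCm38). In this order the means were 40.7 CPM per kb for *Tgfbr2* (chr9:116084293-116175360), 23.4 for *Tgfbr3* (chr5:107106570-107289629), 13.3 for *Tgfb1* (chr7:25687002-25705077), 10.3 for *Tgfbr1* (chr4:47353222-47414931), and 9.72 for *Smad3* (chr9:63646767-63757994). Then came *Smad2* on chromosome 18 at 6.95, *Tgfb3* (chr12:86056745-86079041) at 6.38, *Smad7* on chromosome 18 at 3.42, and *Tgfb2* (chr1:186622792-186705989) at 1.40 CPM per kb. The 3 receptors were thus all among the top 4, and 2 of the 3 ligands were among the bottom 3.

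Some neighbors in that order did not differ beyond their spread over the 6 mice. *Tgfbr1* ran from 9.76 to 11.3 CPM per kb and *Smad3* from 8.06 to 13.6, which overlapped it and the *Tgfb1* range of 12.7 to 13.8. *Tgfb3*, from 4.67 to 10.3, overlapped *Smad2*, from 6.30 to 7.62. By CPM without length, *Tgfbr1* came before *Tgfb1* and *Smad2* before *Smad3*, with the rest of the order unchanged. Length correction fits only reads that cover whole transcripts, and the study's methods name a 3′ kit while the sample labels name another, so both orders are given. Annotated genes that share exon bases with *Tgfb2*, *Tgfb3*, or *Tgfbr3* had at most 0.280 CPM on average.

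The genes nearest in profile were looked for among 192 genes of the pathway and marker lists. The measure was the root mean square difference of log2 CPM over the 6 libraries, each gene centered on its own mean. *Acta2* was nearest to both *Tgfb2* (0.16) and *Tgfb3* (0.13), and *Tgfb2* was the next nearest to *Tgfb3* (0.20). For *Smad3*, the nearest were *Zfyve9*, or SARA, which anchors SMAD2 and SMAD3 at the receptor (0.09), and the ubiquitin ligase *Wwp1* (0.09). *Tgfbr1* was nearest to *Itgav* (0.03) and *Acvr2a* (0.03), *Tgfbr2* to *Cd34* (0.07), and *Tgfbr3* to *Notch3* (0.02) and *Egfl7* (0.04). *Tgfb1* was nearest to *Sp1* (0.05) and *Smad5* (0.06), *Smad2* to *Tgfbrap1* (0.03) and *Pdgfrb* (0.06), and *Smad7* to *Chrd* (0.06) and *Mbp* (0.08). With 6 libraries, and with 1 of them far from the rest for some genes, these distances are descriptions only.

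Around the 9 genes, 105 other genes of the TGF-beta pathway and superfamily were examined, and edgeR and DESeq2 called 0 of them. At an unadjusted edgeR *P* under 0.05, 5 were higher and 2 lower, 6.67% of the 105 against 6.06% of the 18905 genes that reached 10 counts in each library. That share was near the background, and the edgeR adjusted *P* was 0.783 for each of the 7, *Ltbp1*, *Cd109*, *Lox*, *Ccn2*, *Bmp6*, *Bmp3*, and *Grem1*. Of the 105, 77 had a log2 fold change above 0, against 56.1% of those 18905 genes, with a median of 0.08. Other fold changes under 0.2 in the lists below also moved by over 1.5 times, or changed sign, with single mice left out, among them *Smad5*, *Fkbp1a*, *Ppm1a*, *Chrdl1*, *Crebbp*, and *Acvr1b*. Groups did not overlap for 9 genes that were higher, against 6.66% of the 18905 genes, and for 4 that were lower, against 6.78%.

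The latency and activation list held 19 genes, which store TGF-beta in the matrix or release it, with a median log2 fold change of 0.13. *Ltbp1*, which ties latent TGF-beta to the matrix, was at 41.0, 39.0, and 43.9 CPM in *Ebf2*+/+ and at 50.3, 45.6, and 48.9 CPM in *Ebf2E165X/+*. Its groups did not overlap, and the log2 fold change was 0.22 (SE 0.07, edgeR adjusted *P* = 0.783), with 0.21 without the third *Ebf2E165X/+* mouse. *Itgav*, the integrin subunit that pulls on the latent complex, was at 66.7, 67.6, and 66.4 CPM against 71.5, 73.2, and 76.0 CPM, again without overlap (log2 fold change 0.14). *Furin*, the protease that cleaves the TGF-beta precursor, was at 117, 86.1, and 90.5 CPM against 81.6, 85.8, and 80.8 CPM, the lower of the groups being *Ebf2E165X/+* (−0.24, or −0.11 without the high first *Ebf2*+/+ mouse). *Dcn*, the matrix proteoglycan decorin and the most abundant gene of the list, had a log2 fold change of 0.25 with overlapping groups, or 0.16 without the second *Ebf2*+/+ mouse.

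Among the 5 other SMADs, the median was 0.03. *Smad4*, the shared partner of all receptor-activated SMADs, was at 70.4, 67.8, and 69.6 CPM in *Ebf2*+/+ and at 72.0, 74.4, and 78.9 CPM in *Ebf2E165X/+*, without overlap. Its log2 fold change was 0.12 (SE 0.07, edgeR adjusted *P* = 0.783), about that of *Tgfbr1*. The BMP-activated SMADs had log2 fold changes of −0.05 for *Smad1*, 0.01 for *Smad5*, the most abundant of the list, and 0.13 for *Smad9*, with overlapping groups.

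The 16 receptor modulators had a median log2 fold change of 0.01. *Cd109*, a co-receptor that turns TGF-beta receptors over, was at 16.7, 11.2, and 10.2 CPM in *Ebf2*+/+ and at 9.70, 6.86, and 8.70 CPM in *Ebf2E165X/+*. All *Ebf2E165X/+* values were below the lowest *Ebf2*+/+ value, by a small gap, and the log2 fold change was −0.59 (SE 0.21, edgeR adjusted *P* = 0.783). Without the first *Ebf2*+/+ mouse the *Cd109* value was −0.36. *Smurf1*, a ubiquitin ligase for receptors and SMADs, also did not overlap (−0.10), while *Ldlrad4* (0.14) and *Fkbp1a*, the most abundant gene of the list (−0.03), overlapped. In the 10 nuclear cofactors all 10 edgeR log2 fold changes were above 0, against 56.1% of the 18905 genes, with a median of 0.07. The smallest, that of *Sp1*, was 0.0066 in edgeR and −0.0021 in DESeq2. No cofactor had an unadjusted edgeR *P* under 0.05, against 6.06% of the 18905 genes. The corepressor *Tgif2* was at 8.50, 9.62, and 9.77 CPM against 11.1, 11.4, and 10.3 CPM without overlap (0.23), and its relative *Tgif1* had 0.22, or 0.12 without the first *Ebf2*+/+ mouse. The coactivator *Crebbp* had 0.13, and the SMAD phosphatase *Ppm1a*, the most abundant gene of the list, had 0.04.

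The 25 target genes, known to be induced by TGF-beta, had a median of 0.09, with 19 above 0, against 56.1% of the 18905 genes, and 2 had an unadjusted edgeR *P* under 0.05, both higher, against 6.06%. *Lox*, which crosslinks collagen, was at 121, 108, and 123 CPM in *Ebf2*+/+ and at 141, 126, and 156 CPM in *Ebf2E165X/+*. Its groups did not overlap, and the log2 fold change was 0.27 (SE 0.10, edgeR adjusted *P* = 0.783), or 0.19 without the third *Ebf2E165X/+* mouse. *Ccn2*, the connective tissue growth factor, was at 6.60, 6.62, and 15.6 CPM in *Ebf2*+/+ and at 13.8, 17.0, and 27.7 CPM in *Ebf2E165X/+*. The third *Ebf2*+/+ mouse overlapped the other group, and the log2 fold change was 1.02 (SE 0.39, edgeR adjusted *P* = 0.783), or 0.68 without the third *Ebf2E165X/+* mouse and 1.54 without the third *Ebf2*+/+ mouse.

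The structural matrix genes had log2 fold changes of 0.07 for *Col1a1*, 0.07 for *Col3a1*, the most abundant gene of the list (mean 9851 CPM), 0.07 for *Fn1*, and 0.12 for *Tgfbi*, all with overlapping groups. The *Col1a1* interval ran from −0.43 to 0.58, and the lowest *Col1a1* value was 3786 CPM in the second *Ebf2*+/+ mouse, against 4834 to 5280 CPM in the other 5. Without that mouse the signs of 3 of these genes turned, to −0.07 for *Col1a1*, −0.08 for *Col3a1*, and −0.08 for *Fn1*. Without the third *Ebf2E165X/+* mouse, *Tgfbi* had 0.04.

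The 21 other ligands and antagonists of the superfamily had the highest median of the 7 lists, 0.18, with 2 genes higher and 1 lower at an unadjusted edgeR *P* under 0.05, or 14.3% of the list against 4.77% of all genes tested and 6.06% of the 18905 genes. *Bmp6*, a BMP ligand, was at 17.7, 17.2, and 18.5 CPM in *Ebf2*+/+ and at 13.9, 13.96, and 15.1 CPM in *Ebf2E165X/+*. Its log2 fold change was −0.31 (SE 0.09, edgeR adjusted *P* = 0.783), and it had the smallest unadjusted *P* among the 105 genes. The groups did not overlap. *Bmp3*, a ligand that opposes other BMPs, was at 14.5, 22.5, and 17.99 CPM against 23.5, 37.5, and 23.3 CPM, without overlap (0.61). *Grem1*, a secreted BMP antagonist, was at 7.73, 10.6, and 9.61 CPM against 12.7, 11.4, and 11.0 CPM, also without overlap (0.33). Without the third *Ebf2E165X/+* mouse the log2 fold changes were −0.35 for *Bmp6*, 0.73 for *Bmp3*, and 0.37 for *Grem1*. *Bmp3* had 0.35 without the second *Ebf2E165X/+* mouse, and *Grem1* had 0.20 without the first *Ebf2*+/+ mouse. *Chrdl1*, the most abundant gene of the list, had 0.09.

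The 9 other receptors had a median of 0.07 and no gene at an unadjusted *P* under 0.05. *Acvr1c*, or ALK7, the activin and GDF receptor of adipocytes and the most abundant of the list, was at 197, 256, and 197 CPM in *Ebf2*+/+ and at 253, 170, and 124 CPM in *Ebf2E165X/+*. The groups overlapped, the third *Ebf2E165X/+* mouse was lowest, and the log2 fold change was −0.25 (edgeR adjusted *P* = 0.783). It was −0.03 without that mouse, −0.12 without the second *Ebf2*+/+ mouse, and −0.56 without the first *Ebf2E165X/+* mouse. *Acvr2a* (0.09) and *Acvr1b* (0.15), both activin receptors, also overlapped.

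**Figure D4:**
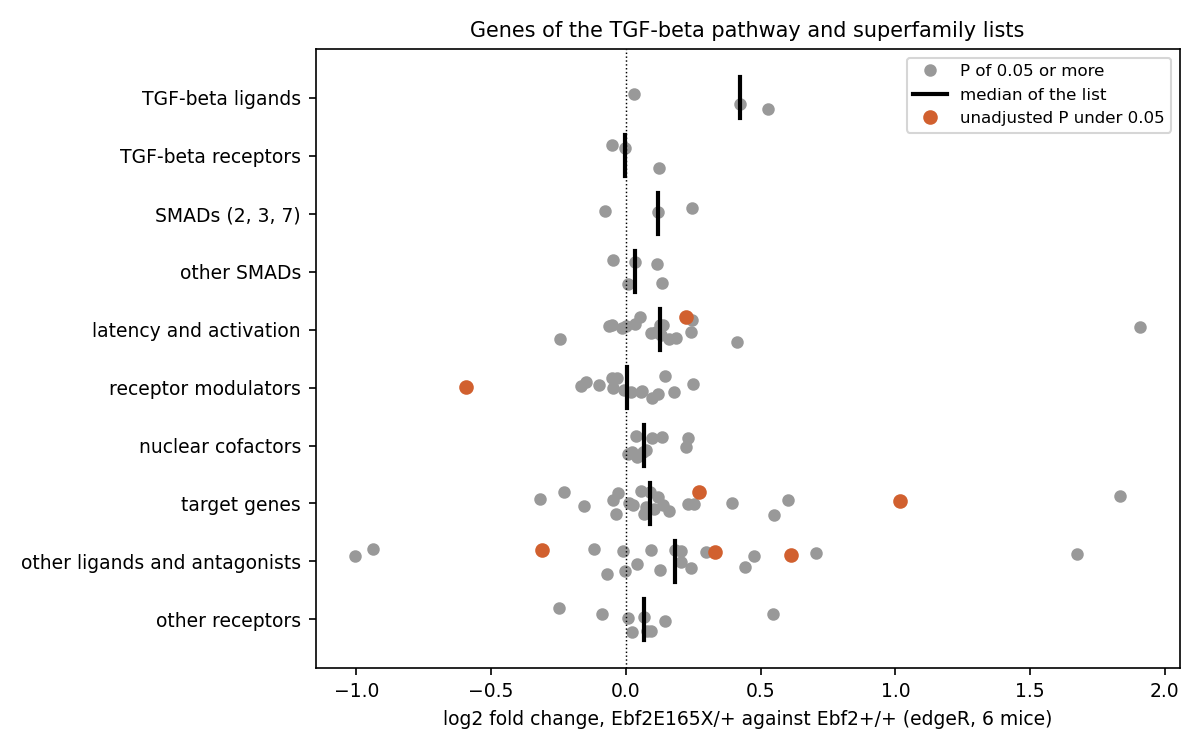
Log2 fold change, *Ebf2E165X/+* against *Ebf2*+/+ (x axis, edgeR with 6 mice), of each gene in the 3 groups of the 9 genes (top) and the 7 lists of 105 other genes, with vertical scatter for legibility, list medians as black bars, and genes at an unadjusted *P* under 0.05 in orange. List medians other than that of the 3 ligands (0.42) lie between 0.00 and 0.18, and the 3 points above 1.5 are *Itgb6*, *Tpm1*, and *Mstn*.

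*Itgb6*, *Tpm1*, and *Mstn* were singled out after their values were seen. *Tpm1*, tropomyosin, was at 237, 702, and 303 CPM in *Ebf2*+/+ and at 355, 166, and 3903 CPM in *Ebf2E165X/+*. *Mstn*, or myostatin, which skeletal muscle secretes, was at 3.93, 2.49, and 1.501 CPM against 1.65, 0.376, and 23.2 CPM. *Itgb6*, an integrin subunit that activates latent TGF-beta, was at 0.924, 1.42, and 0.871 CPM against 1.11, 0.176, and 10.8 CPM. In all 3 genes the third *Ebf2E165X/+* mouse was highest and the second was lowest, as for the muscle markers. Their log2 fold changes were 1.83, 1.67, and 1.91 with all mice and −0.67, −1.38, and −0.74 without the third *Ebf2E165X/+* mouse, in that order.

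Marker lists of the cell types in the depot were compared as mean log2 CPM over each list. With 3 mice per genotype, the exact 2-sided permutation test cannot go below *P* = 0.1. Lists at that value, whose groups did not overlap, were adipocyte markers (−0.39), thermogenic adipocyte markers (−2.02), endothelial markers (−0.20), and B cell markers (0.35). Without the third *Ebf2E165X/+* mouse, the adipocyte difference was −0.25 and the endothelial difference −0.10. Without the first *Ebf2*+/+ mouse, the B cell difference was 0.12 and the T cell difference, given below, was 0.0034. Stromal progenitor markers, the cells that express PDGFRA and respond to TGF-beta, differed by 0.07 (exact permutation *P* = 0.6), or from 0.0007 to 0.14 with single mice left out, and macrophage markers by 0.13 (exact permutation *P* = 0.7). Mural (0.03), T cell (0.16), platelet (0.23), skeletal muscle (0.47), Schwann (0.03), and epithelial (−0.60) marker lists all overlapped.

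Summed levels weigh the abundant markers more than the mean log2 level does. Adipocyte markers, with *Fabp4* the most abundant, summed to 14070, 14055, and 11642 CPM in *Ebf2*+/+ and to 11904, 10353, and 7890 CPM in *Ebf2E165X/+*, and *Fabp4* had a mean of 5717 CPM. These adipocyte sums overlapped, since the first *Ebf2E165X/+* mouse was above the third *Ebf2*+/+ mouse. Thermogenic markers, with *Cidea* the most abundant (mean 53.6 CPM), summed to 151, 205, and 211 CPM against 38.1, 45.3, and 70.6 CPM. Endothelial markers, with *Pecam1* the most abundant (mean 319 CPM), summed to 1360, 1326, and 1286 CPM against 1220, 1265, and 993 CPM. B cell markers, with *Ms4a1* the most abundant (mean 108.9 CPM), summed to 361, 579, and 589 CPM against 601, 691, and 628 CPM. No marker of any list was at 0 in all libraries, and the adipocyte sum was at least 7890 CPM in each library. The part of these lists in the levels of the TGF-beta genes was not tested.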

How the data were processed

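RNA from IWAT of 6 mice was sequenced by the study's authors. The submitters' processing notes name cutadapt 4.8, FastQC 0.11.8, STAR 2.7.8a, RSEM 1.3.3, MultiQC 1.20, and the GRCm38 build. The authors deposited expected counts, RSEM's estimates per gene, not scaled for depth. All values were whole, so rounding changed none. The labels name an NEB library kit, whereas the study's methods name a QuantSeq 3′ kit, and strand handling is not given in the sources used here.

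Groups were taken from sample titles. Every gene with a count in 1 or more libraries was fitted in edgeR 4.0.16 (R 4.3.3; TMM, quasi-likelihood test, genotype as the only term), with Benjamini-Hochberg adjustment over 32664 genes. A call required an adjusted *P* under 0.05 and a linear fold change above 1.5. The study used DESeq2, and its supplementary methods give this linear threshold, whereas its main text gives the same number on the log2 scale. DESeq2 1.42.0 and limma 3.58.1 (voom) were alternatives, with other scalings, filters, a replicate block, and single mice left out. Counts were used as CPM with a prior count of 2 in logarithms. The 95% intervals come from fitted SEs. The scripts were tested on simulated data.

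The 9 genes and all lists were chosen with earlier results of these data known. Named genes were the 9 genes, *Ebf2*, the 3 genes of smallest unadjusted *P* and the most abundant gene of each pathway list, *Ccn2*, *Tgfbi*, *Col1a1*, *Fn1*, *Acta2*, *Smad4*, *Acvr1c*, the most abundant gene of each marker list, and the 2 nearest profiles of each of the 9, with exceptions stated where they are named. Some genes that this rule names are not reported here. Of 55491 identifiers, 55227 matched GENCODE M21. Whether the 3 mice of a genotype share litters is not given in the sources used here, so litter and genotype cannot be told apart. The edgeR *P* values weigh the genotype difference against variation between mice within a genotype, estimated partly from all genes.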

Additional observations from a re-analysis of the deposited data

How the results depend on the processing

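None of the 9 genes and none of the 105 other pathway genes was called under any alternative. Of 135 recomputed fold changes of the 9 genes, 122 kept their sign and 0 had an adjusted *P* under 0.05. Among all genes, 3 were called with edgeR, 98 with DESeq2 (92 without independent filtering), and 1 to 11 with single mice left out, 11 being without the third *Ebf2E165X/+* mouse and the 1 without the second *Ebf2*+/+ mouse. The number of the 9 genes at an unadjusted *P* under 0.05 was 1 (*Tgfb3*) with DESeq2, with or without its filter, against 7.45% of genes, and 0 to 1 with single mice left out, the 1 without the first *Ebf2E165X/+* mouse, against 6.18% of genes. The number without overlap was 1 to 3 with single mice left out, when 20.5% to 27% of the genes with 10 or more counts throughout did not overlap either. For *Ebf2*, DESeq2 gave −0.82, and leaving out single mice gave −0.86 to −0.77, with edgeR adjusted *P* from 0.0423 to 0.369.

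Leaving out single mice gave −0.0041 to 0.059 for *Tgfb1*, −0.053 to 0.66 for *Tgfb2*, −0.13 to 0.077 for *Tgfbr2*, −0.14 to 0.033 for *Tgfbr3*, and −0.0096 to 0.19 for *Smad7*. The same step gave −0.14 to −0.029 for *Smad2* and 0.021 to 0.36 for *Smad3*. For *Tgfbr2*, limma-voom gave 0.0050. Without mouse number 3 of both genotypes, an alternative chosen after seeing the data, 9 genes were called, 3 of the 9 genes did not overlap (*Tgfb1*, *Tgfb3*, and *Tgfbr1*, all higher), against 42.9% of genes, and the log2 fold changes were −0.067 for *Tgfb2*, 0.0024 for *Tgfbr2*, 0.020 for *Tgfbr3*, and −0.059 for *Smad3*. The causes were not tested, beyond the fewer mice. Marker list differences ran, with single mice left out, from −0.072 to 0.10 for mural, −0.018 to 0.23 for macrophage, −0.063 to 0.44 for platelet, −1.13 to 1.77 for skeletal muscle, −1.51 to 0.11 for epithelial, and −0.062 to 0.12 for Schwann markers, and 89 of 96 recomputed marker differences kept their sign.

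Mice of the same number did not deviate together (correlations across genes of 0.15, −0.28, and −0.16), so the numbers were not taken as pairs. With the replicate block, 2 genes were called, 1 of the 9 genes (*Tgfb3*) had an unadjusted *P* under 0.05, against 5.67% of genes, and *Tgfbr2* had a log2 fold change of 0.0062.

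With 3 mice per genotype and edgeR, the intervals of *Tgfb2* and *Tgfb3* reach above 1 on the log2 scale, so a change of that size lies within them.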
